A study of Mus musculus with 6 samples.

Results

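The comparison sets B16-F1 cells with a short hairpin RNA (shRNA) against macroH2A2 beside B16-F1 cells with a control hairpin, and covers 4 of the 6 arrays of the study. The arrays were chosen by their labels alone, 2 for macroH2A2 shRNA and 2 for control shRNA, and no measured value entered the choice. B16-F1 is a pigmented melanoma line from the C57BL/6J mouse strain. Every line carried a stably integrated lentiviral hairpin, so the control cells, whose hairpin targets GFP, had been transduced as well. The remaining 2 arrays came from cells with a hairpin against macroH2A1. In the comparison with control they entered the fits to help estimate the spread between arrays, and they counted in the signal filter. They were also set against the macroH2A2 line in a test between the lines. Their values stand beside a few genes below. The hairpin sequences, and whether a line was a clone or a pool, are not given in the sources used here. Each line had been profiled as biological replicate 1 and biological replicate 2. The comparison within replicate number 1 is called set 1 and that within replicate number 2 is called set 2.

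MacroH2A proteins are histone H2A variants whose histone fold is joined to a large globular macro domain, and the genes Macroh2a1 and Macroh2a2 encode them. They are known to mark repressed chromatin, such as the inactive X chromosome and many silent developmental genes, and to restrain gene activation in differentiated cells. In melanoma their loss has been studied for its link to malignant behaviour, with Cdk8, the kinase of the Mediator complex, as a followed target.

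Differences below are on the log2(signal + 16) scale, as macroH2A2 shRNA minus control, unless another quantity is named. The tests ran over 27025 probe sets with sufficient signal, and 22703 of these carried 1 gene symbol, for 12088 genes. The median signal of an array lay between 15.1 and 24.6, highest on the control replicate 1 array. Across tested probe sets the set 1 and set 2 differences correlated only weakly (Pearson r 0.10, a description over probe sets that share their arrays), and 51.3% of probe sets had the same sign in both. Without the replicate number as a block, limma called 0 of the 27025 probe sets (0%), with a smallest adjusted p of 0.150. At an unadjusted p under 0.05 it counted 1075 probe sets, 393 higher and 682 lower. Under quantile normalization 44.2% of such probe sets were higher, and 49.8% under median centring, against 36.6% here. With the replicate number as a block (a term for the difference shared by arrays of the same number), limma called 16 probe sets higher (0.0592%) and 23 lower (0.0851%). "Rose" and "fell" are used only for these 39 probe sets, of which 34 carried 1 symbol. With the block, limma called 3 probe sets without control replicate 1, 804 without macroH2A2 shRNA replicate 2, and between 96 and 138 without control replicate 2, macroH2A2 shRNA replicate 1 or either macroH2A1 shRNA array. It called 0 without the signal filter, where 3258 had an unadjusted p under 0.05, and 0 without the variance trend of the fit, where 2314 did. With 2 arrays a group, the p-values measure the spread between these arrays. Each SE below is from the fit without the block, also where an adjusted p with the block stands beside it.

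**Figure D1:**
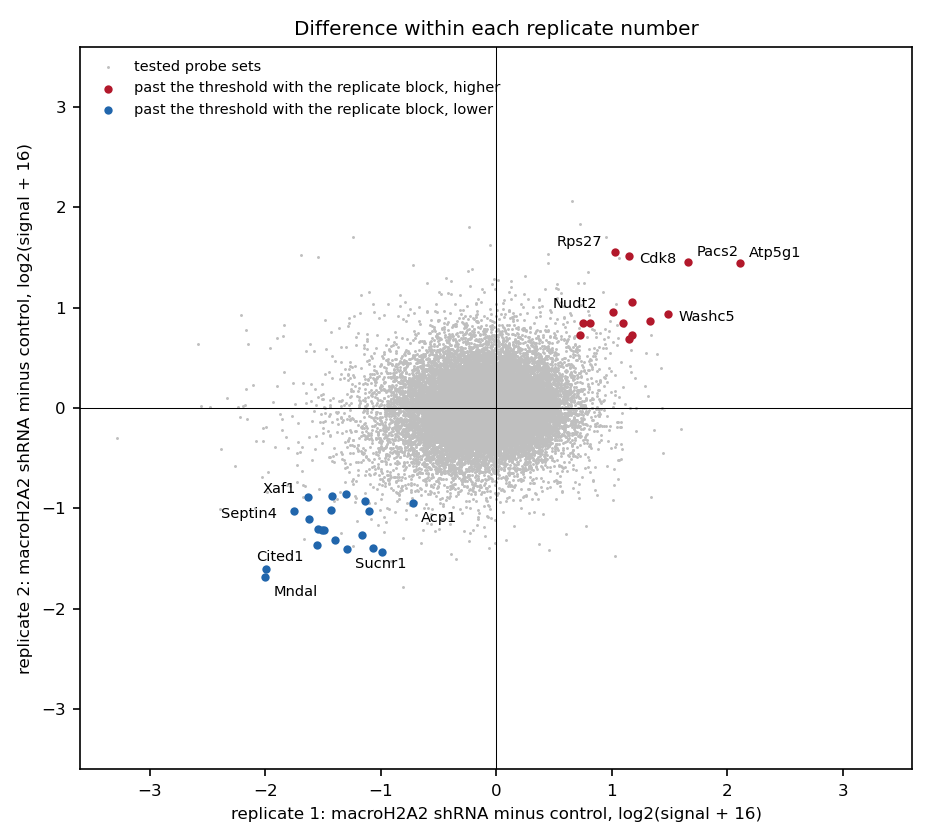
Each point is 1 of the 27025 tested probe sets, with its set 1 difference on the horizontal axis and its set 2 difference on the vertical axis, both in log2(signal + 16) units. The probe sets with 1 gene symbol that passed the threshold with the replicate block are coloured and lie in the corners where both sets had the same sign, while the grey cloud shows little relation between the sets.

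The hairpin's own target could not be checked. Macroh2a2 read 6.1 and 7.5 on the control arrays and 11.9 and 8.3 on the macroH2A2 shRNA arrays, near or below the 10.4 signal units that a probe set needed to be tested. The direction of every difference therefore rests on the label of the line. Macroh2a1 read 1212.7 and 1262.4 against 1271.2 and 1170.5, so its groups of arrays overlapped. Of 5 tested H2A variant genes, 3 were higher and 2 lower, and none passed. H2az1, which encodes H2A.Z, read 5016.5 and 5745.8 in control and 5689.3 and 6502.9 with the hairpin. H2ax, the variant phosphorylated at DNA breaks, was lower in both sets, with 414.4 and 390.6 against 271.9 and 299.4, a difference of -0.47 (SE 0.16).

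Pigment cell identity was present on all arrays. All 29 pigment synthesis genes on the array were bright enough to test, and Dct, the dopachrome tautomerase of melanin synthesis, averaged 7467 in control and 8014 with the macroH2A2 hairpin. Of 19 leukocyte marker genes on the array, 9 stayed under the test limit on all 4 arrays, among them the pan-leukocyte marker Ptprc, and the brightest averaged 36.0 in control. Of 11 keratinocyte markers, 7 stayed under the limit. Of 12 fibroblast markers, 5 did, and of the 4 tested, 2 were higher and 2 lower. Pdgfra read 82.9 and 52.4 against 25.6 and 25.2, while Postn, the brightest, averaged 78.45 in control and 89.1 with the hairpin. Of 12 endothelial markers, 5 stayed under the limit, including Tek, Tie1 and Vwf, and of the 3 tested, 1 was higher and 2 lower. Egfl7, a secreted angiogenic factor, read 232.1 and 146.6 against 82.3 and 98.7. The summed signal of the endothelial list was 394.4 and 249.5 in control and 203.0 and 193.6 with the hairpin. The part of these markers in the results below was not tested.

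Interferon-induced effector genes had the lowest median of the gene lists with at least 10 tested members. These genes encode the antiviral proteins that cells make after interferon binds its receptor and activates STAT and IRF transcription factors. The list held 42 tested genes, of which 40 were lower and 2 higher, with a median difference of -0.60. Over all 12088 tested genes the median was -0.01, with 5741 higher and 6347 lower. Within set 1 the list's median was -0.71, with 39 of 42 lower, and within set 2 it was -0.46, with 37 lower. For 31 of the 42, both macroH2A2 shRNA arrays lay below both control arrays, and for 0 they lay above. Among all tested genes 18.4% had groups that did not overlap with the hairpin lower, and 15% with it higher. With the block 4 members fell and 0 rose, where 0.108% of all tested genes fell and 0.091% rose, counting each gene by its brightest probe set. In RNA of a whole culture, fewer expressing cells and less RNA per cell cannot be told apart.

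The members that fell were Ifit1, Rtp4, Xaf1 and Oas1a. Ifit1, which binds viral RNA ends, read 167.2 and 157.9 in control and 43.7 and 64.8 with the hairpin, a difference of -1.36 (SE 0.27, limma adjusted p = 0.0306 with the block and 0.702 without). Both hairpin arrays lay well below both control arrays. Rtp4, an interferon-induced chaperone of receptors, read 789.9 and 815.7 against 289.7 and 318.2 (-1.36, SE 0.24). A dimmer Rtp4 probe set differed by -0.39 and did not pass. Xaf1, a binding partner of the apoptosis inhibitor XIAP, read 550.4 and 422.8 against 167.2 and 221.4 (-1.26, SE 0.21). A dimmer Xaf1 probe set differed by only -0.11, and its groups overlapped. Oas1a, an oligoadenylate synthetase that activates RNase L, read 539.0 and 513.0 against 242.9 and 243.1 (-1.06, SE 0.17). Its set values of -1.10 and -1.03 were close to each other, while those of Xaf1, -1.63 and -0.89, were further apart.

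Other members were lower without passing in either fit. Usp18, Ifitm3, Gbp2 and Ifit2 were chosen after their values were seen. Sp100, a component of nuclear bodies, read 51.4 and 37.1 against 12.5 and 4.5, with -1.24 in set 1 and -1.37 in set 2 (adjusted p = 0.0635 with the block). Usp18, the protease that removes ISG15 from proteins, read 428.7 and 256.3 against 110.7 and 144.4. Bst2, the tetherin that holds budding virions, read 1204.7 and 1290.5 against 749.1 and 721.8 (-0.75, SE 0.14). Ifitm3, which blocks viral entry from endosomes, read 2820.2 and 2342.3 against 1407.2 and 1507.9. Gbp2, a guanylate-binding protein, went the other way in signal, with 50.5 and 77.1 against 52.7 and 116.4, and its groups overlapped. Ifit2, another member of the IFIT family, also overlapped, with 628.5 and 728.3 against 655.4 and 641.7.

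**Figure D2:**
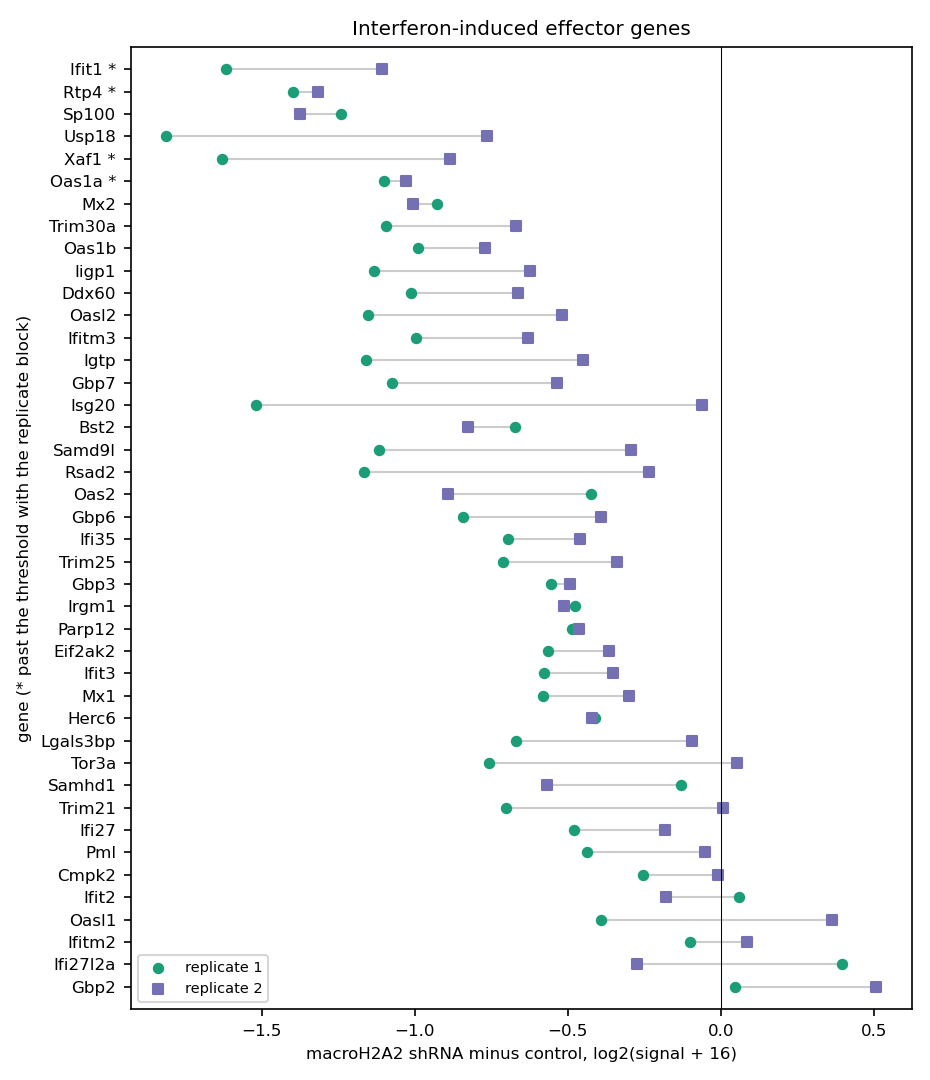
Differences of the 42 tested interferon-induced effector genes, ordered by the mean of both sets, with set 1 as circles and set 2 as squares on the log2(signal + 16) scale. A star marks the 4 genes past the threshold with the replicate block. In set 1, 39 genes lie left of 0, and in set 2, 37 do.

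Interferon-induced genes are known to be switched on through the interferon-stimulated response element, which the STAT and IRF factors bind. The motif GAAANNGAAA, where N is any base, was searched on both strands of RefSeq promoters (build GRCm38.p6), from 250 bases before to 50 bases after the start of each gene. A match is a match of letters only. Of the 31 effector genes with a promoter in the table, 16 held the motif (51.6%). Among the 9819 tested genes with a promoter, 341 held it (3.47%). The 16 effector genes with the motif had a median difference of -0.72, and 15 of them were lower. The 15 without it had a median of -0.47, and all 15 were lower, so low values were not limited to genes with the motif in this window. The windows below show every match in capitals, with overlapping matches joined, 5′ to 3′ on the strand of the gene. TTTC runs are matches on the opposite strand. They are shown for Ifit1 and Oas1a, which fell, for Bst2 and Igtp, which were lower without passing, and for Gbp2, which was not lower. Igtp was chosen after its values were seen.
Ifit1, chr19:34640760-34640819, plus strand: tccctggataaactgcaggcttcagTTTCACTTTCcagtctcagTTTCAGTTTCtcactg
Oas1a, chr5:120907526-120907570, minus strand: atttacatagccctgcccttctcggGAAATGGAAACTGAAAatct
Bst2, chr8:71537562-71537627, minus strand: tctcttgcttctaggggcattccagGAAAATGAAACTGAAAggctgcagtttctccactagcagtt
Igtp, chr11:58199497-58199555, plus strand: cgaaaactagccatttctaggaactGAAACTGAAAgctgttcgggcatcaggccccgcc
Gbp2, chr3:142620579-142620638, plus strand: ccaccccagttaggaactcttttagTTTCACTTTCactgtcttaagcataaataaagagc

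The p200 family encodes interferon-inducible nuclear proteins, some of which sense DNA. Only 2 of its genes were bright enough to test. Mndal read 132.7 and 155.9 in control and 21.1 and 37.5 with the hairpin, and it fell by 1.84 on the log2 scale (SE 0.28, limma adjusted p = 0.00588 with the block and 0.565 without). A further Mndal probe set read 109.5 and 123.7 against 15.5 and 30.0 and passed as well. This was the largest fall among the probe sets with 1 symbol that passed. The family's other tested gene, Ifi203, read 29.2 and 26.6 against 31.9 and 31.8. Near-identical copies in this family may share probes, so the signal of a single member is uncertain.

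Genes of interferon signalling and of the sensors upstream of it were lower on balance, but by less. Of 27 tested, 22 were lower and 5 higher, with a median of -0.16 (-0.35 in set 1 and -0.08 in set 2). That median was -0.26 without macroH2A2 shRNA replicate 2 and -0.09 under median centring. None of the 27 passed in either fit, and 5 had an unadjusted limma p under 0.05 without the block. Socs3, a feedback inhibitor of cytokine receptors, averaged 191.8 in control and 104.3 with the hairpin (-0.78, SE 0.19). Ifih1, the cytosolic sensor MDA5 of long double-stranded RNA, read 245.5 and 256.3 against 134.7 and 156.7 (-0.73, SE 0.20). The groups of both genes did not overlap. Irf9, the DNA-binding subunit of the interferon-activated complex ISGF3, read 214.2 and 161.4 against 120.5 and 129.1.

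Antigen presentation genes were also lower in signal. Of 18 tested, 14 were lower and 10 (55.6%) had non-overlapping groups on the low side, against 18.4% of all tested genes. The median was -0.20 (-0.41 and -0.20 within the sets), -0.30 without macroH2A2 shRNA replicate 2 and -0.13 under median centring. None passed in either fit. Nlrc5, which activates transcription of MHC class I genes, read 76.3 and 45.3 against 10.7 and 19.8 (-1.28, SE 0.28). Tap1, a subunit of the peptide transporter, read 90.8 and 77.8 against 38.3 and 42.3. The class I gene H2-D1 read 2557.6 and 2064.9 against 1450.9 and 1724.9. Outside this list, Cd1d1, which presents lipids to natural killer T cells, read 99.7 and 94.1 against 26.8 and 38.3 and fell by 1.23 (SE 0.22, adjusted p = 0.0334 with the block). A further Cd1d1 probe set differed by -0.78.

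Secreted inflammatory factors followed a similar count. Of 25 tested, 20 were lower, and the median was -0.15 (-0.28 in set 1 and -0.08 in set 2). Groups did not overlap on the low side for 9 (36%), against 18.4% of all tested genes. The list's median was -0.28 both without control replicate 2 and without macroH2A2 shRNA replicate 1. It was -0.09 under quantile normalization and -0.08 under median centring. Cxcl2, a neutrophil chemokine, read 94.8 and 66.1 in control and 5.9 and 23.8 with the hairpin (-1.69, SE 0.33, adjusted p = 0.0555 with the block). Cxcl1 read 638.5 and 406.1 against 168.8 and 330.4, and its difference was -1.82 in set 1 and -0.29 in set 2. Cxcl10, an interferon-induced chemokine for T cells, read 494.1 and 628.3 against 291.3 and 386.1, with set values of -0.73 and -0.68. The list of ADP-ribosyltransferases, ADP-ribose readers and NAD synthesis genes, which includes macro domain proteins, had 15 of 30 tested members higher and 15 lower. Their groups did not overlap for 4 on the high side (13.3%) and 11 on the low side (36.7%), and none passed. Over all tested genes these shares were 15% and 18.4%. The interferon-induced Parp14 read 122.3 and 110.3 against 54.2 and 60.3. Macrod1, a mitochondrial macro domain hydrolase, read 221.5 and 185.0 against 79.5 and 124.3.

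**Figure D3:**
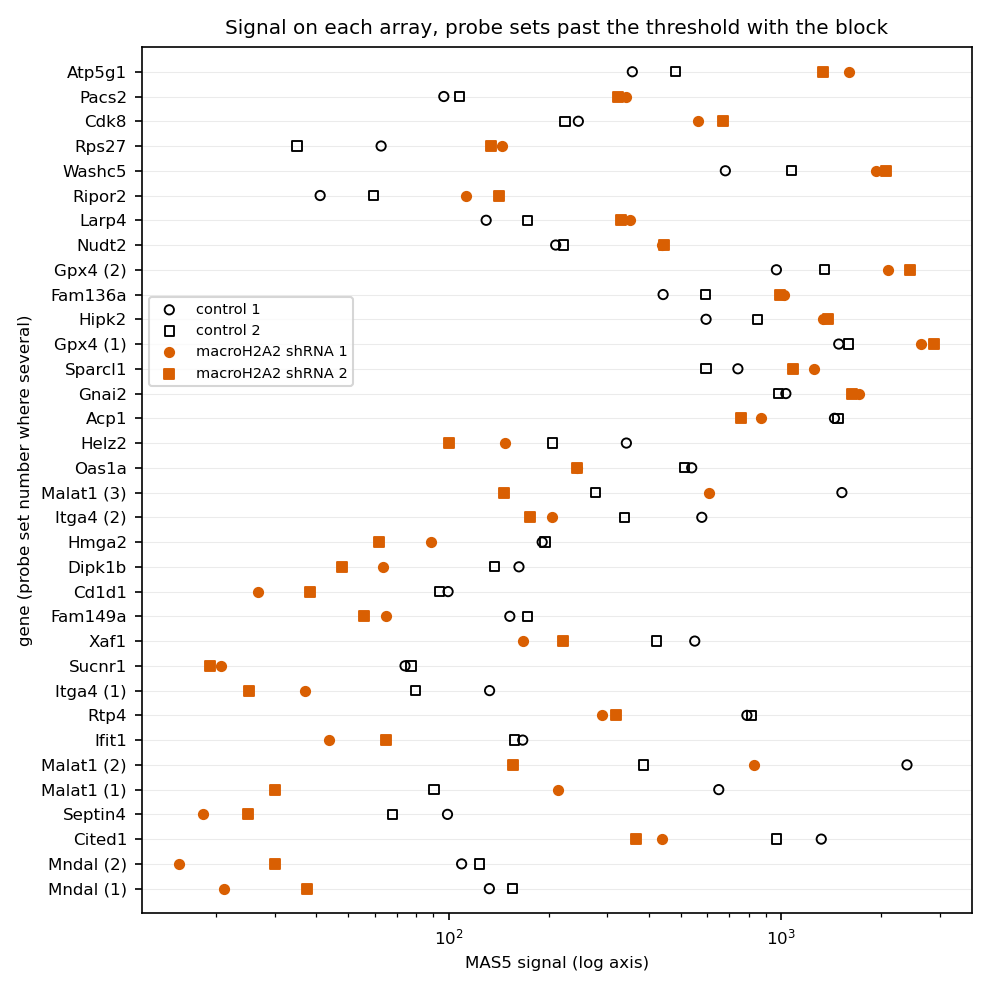
MAS5 signals on the 4 arrays, on a log axis, for the 34 probe sets with 1 symbol past the threshold with the replicate block. Open symbols are control and filled symbols macroH2A2 shRNA, with circles for replicate 1 and squares for replicate 2, and the groups are apart for all genes shown except Malat1.

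Outside the interferon gene lists used here, the genes that fell had varied roles. The lists need not hold every interferon-induced gene. Cited1, a transcriptional cofactor expressed in melanocytic cells, read 1322.1 and 968.5 against 440.2 and 367.1 and fell by 1.46 (SE 0.18, adjusted p = 0.00703 with the block). Septin4, a cytoskeletal GTPase, read 99.3 and 67.7 in control and averaged 21.6 with the hairpin (-1.39, SE 0.25), and a further probe set differed by -1.41. Sucnr1, the receptor for succinate, read 74.0 and 77.2 against 20.7 and 19.1. These 3 genes did not overlap between the groups. Itga4, the alpha 4 integrin subunit that binds VCAM1 and fibronectin, read 578.0 and 337.7 against 205.3 and 176.0 and fell by 1.15 (SE 0.29). Its second passing probe set fell by 1.35, and 2 others that did not pass differed by -0.80 and -0.56. Hmga2, an architectural chromatin protein of embryonic and tumour cells, read 191.3 and 195.1 against 88.5 and 61.8 and fell by 1.21 (SE 0.20). Its other probe sets differed by -1.03, -1.29 and 0.04. Helz2, a coactivator helicase, averaged 274.0 in control and 123.7 with the hairpin, with groups apart. Fam149a read 152.9 and 172.7 against 64.7 and 55.5, and Dipk1b read 162.9 and 137.8 against 63.7 and 47.9. A further Fam149a probe set differed by -0.50 and did not pass. Acp1, the low molecular weight tyrosine phosphatase, had the smallest of these falls, 0.84 (SE 0.12), with 1448.8 and 1484.3 against 872.6 and 760.9.

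Malat1, a nuclear long noncoding RNA, passed on 3 probe sets although its groups overlapped. Its brightest probe set read 2393.9 on control replicate 1 and 385.4 on control replicate 2, against 831.0 and 156.8 with the hairpin. Both replicate 1 arrays were thus far above both replicate 2 arrays, and within each set the hairpin array was lower, by 1.51 and 1.22. Without the block its difference was -1.36 with SE 1.06, and with the block the adjusted limma p was 0.00588. Without the control replicate 1 array and without the block, the difference of the brightest became -0.07 and that of the second brightest 0.12. The 4 Malat1 probe sets that did not pass differed by -0.82, -0.30, -0.28 and 0.01, and the groups of the first of these did not overlap. Neat1, a nuclear RNA encoded beside Malat1, read 2694.5 and 705.6 against 810.7 and 554.2 and did not pass.

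The genes that rose also had varied roles. Atp5g1, which encodes the c subunit of mitochondrial ATP synthase, read 357.2 and 481.5 in control and 1600.2 and 1337.7 with the hairpin. It rose 3.43-fold on the log2(signal + 16) scale (1.78, SE 0.18, limma adjusted p = 0.00588 with the block and 0.150 without). Pacs2, a sorting protein at contacts of endoplasmic reticulum and mitochondria, read 96.8 and 107.8 against 341.1 and 323.4 (1.56, SE 0.16). A second Pacs2 probe set differed by -0.20, so the probe sets of this gene disagreed. Cdk8 rose by 1.33 (SE 0.17). Of the 7 tested genes of the Mediator kinase module, Cdk8 included, 4 were higher and 3 lower. The cyclin partner of Cdk8, Ccnc, read 173.9 and 166.9 against 162.1 and 126.5, while Med12l, a paralog of the subunit gene Med12, read 56.7 and 78.1 against 116.7 and 105.8.

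Washc5, a subunit of the actin-nucleating WASH complex on endosomes, read 680.4 and 1078.3 against 1932.1 and 2074.9 and rose by 1.21 (SE 0.21). Larp4, an RNA-binding protein that protects poly(A) tails, read 129.8 and 173.1 against 351.6 and 329.3, and its other probe sets differed by 0.55 and 0.76. Ripor2 read 41.1 and 59.5 against 113.1 and 141.5. All 3 had higher signals on both hairpin arrays than on both control arrays. Nudt2, which hydrolyses dinucleoside polyphosphates, read 210.1 and 222.1 against 438.6 and 446.2 and rose by 0.98 (SE 0.14). Gpx4, the peroxidase that reduces lipid hydroperoxides, passed on 2 probe sets, and the brighter read 1492.3 and 1598.0 against 2636.8 and 2891.8. Hipk2, a nuclear kinase, rose by 0.92, and its other tested probe sets lay between -0.23 and 0.79. Gnai2, an inhibitory G protein subunit, rose by 0.73 (SE 0.12), with 0.71 on its other probe set. Sparcl1, a secreted matrix glycoprotein, rose by 0.80, and Fam136a rose by 0.95, while other Fam136a probe sets differed by -0.49 and 0.17.

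By size within the sets, 7 probe sets were at least 2-fold higher in both sets (0.0259%) and 23 at least 2-fold lower in both (0.0851%). Among those that did not pass with the block, Cbr2, a carbonyl reductase, read 20.4 and 16.3 against 54.2 and 89.2 (adjusted p = 0.0526). It was 0.95 higher in set 1, just under 2-fold, and 1.70 higher in set 2. Abat, the GABA transaminase, read 41.4 and 63.8 against 101.5 and 147.7, with 1.03 and 1.04 in the sets. Zdhhc12, a palmitoyltransferase, was under the test limit in control, with 6.7 and 3.9, and read 31.5 and 40.3 with the hairpin.

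Pigment and melanocyte genes did not shift as groups. Of 29 pigment synthesis genes, 18 were higher and 11 lower, with a median of 0.07 that became -0.0021 without macroH2A2 shRNA replicate 2. Cited1 was the only member to pass. Slc7a11, the cystine transporter that supplies cysteine for yellow-red pigment, read 254.5 and 215.9 against 35.4 and 99.2, and its difference of -1.70 (SE 0.51) did not pass. Slc45a2, a melanosomal transporter, read 2335.3 and 2443.2 against 1759.4 and 2018.3. Of 24 melanocyte regulators, 11 were higher and 13 lower, and none passed. The neural crest factor Snai2 read 557.2 and 744.6 against 389.6 and 526.9, and Zeb2 read 1069.9 and 871.5 against 682.9 and 723.7. Tfap2a, an activator of melanocyte genes, was higher, with 548.8 and 501.2 against 662.3 and 707.2. Receptor kinases had a median of -0.26 over 20 tested genes, 14 lower and 6 higher, none past the threshold. That median was -0.11 without control replicate 1 and -0.16 without macroH2A2 shRNA replicate 2. Axl read 62.7 and 25.6 against 18.4 and 16.2 in that group.

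Genes for translation and energy production showed many small positive differences. Of 72 respiratory chain and ATP synthase genes, 68 were higher, yet the median was only 0.12 (0.16 in set 1 and 0.09 in set 2). Groups did not overlap on the high side for 36 (50%), against 15% of all tested genes. Atp5g1 alone passed among the 72. Typical members were Ndufc2, with 2887.5 and 3178.4 against 3499.3 and 3647.0, and Ndufb2, with 1510.5 and 1909.5 against 2063.3 and 2097.5. Of 39 ribosomal protein genes, 35 were higher, 24 (61.5%) with non-overlapping groups, and the median was 0.10. Rps27 was the member that rose, on a probe set that read 62.7 and 35.0 against 144.7 and 133.9. Rps9, which did not pass, read 3833.9 and 4001.5 against 4341.9 and 4945.8. Quantile normalization took the median of the ribosomal list to 0.02 and that of the respiratory list to 0.06, while median centring took them to 0.17 and 0.19. Splicing factors were higher in 35 of 43, with a median of 0.11, and 0 passed. That median was 0.05 without macroH2A2 shRNA replicate 1 and 0.18 without replicate 2 of that line. Over all 137 tested probe sets of the splicing factor genes, in place of the brightest of each, the median was 0.04. Srsf9 went against them, with 1551.3 and 1732.9 against 1093.5 and 1114.7.

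Several groups had opposite signs in the sets. The poly-A spike-in controls, added before labelling, also differed between the sets, with medians of -0.27 in set 1 and 0.08 in set 2, and their part in these groups was not tested. Replication genes, which act in G1 and S phase, showed the clearest reversal. In set 1, 4 of 43 were lower, with a median of 0.35, and in set 2, 41 of 43 were lower, with a median of -0.28. Uhrf1, which carries DNA methylation through replication, read 661.7 and 1214.3 in control and 1415.9 and 1060.4 with the hairpin. Gins1, a subunit of the replicative helicase, read 283.3 and 411.2 against 500.0 and 394.4. On the control arrays 4 of the 43 genes were higher in replicate 1 than in replicate 2. On the hairpin arrays 38 were higher in replicate 1. Of 39 mitotic genes, 7 were lower in set 1 and 30 in set 2. Nek2, a centrosome kinase, was higher in both sets, with 372.2 and 425.0 against 668.6 and 596.6, and did not pass.

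**Figure D4:**
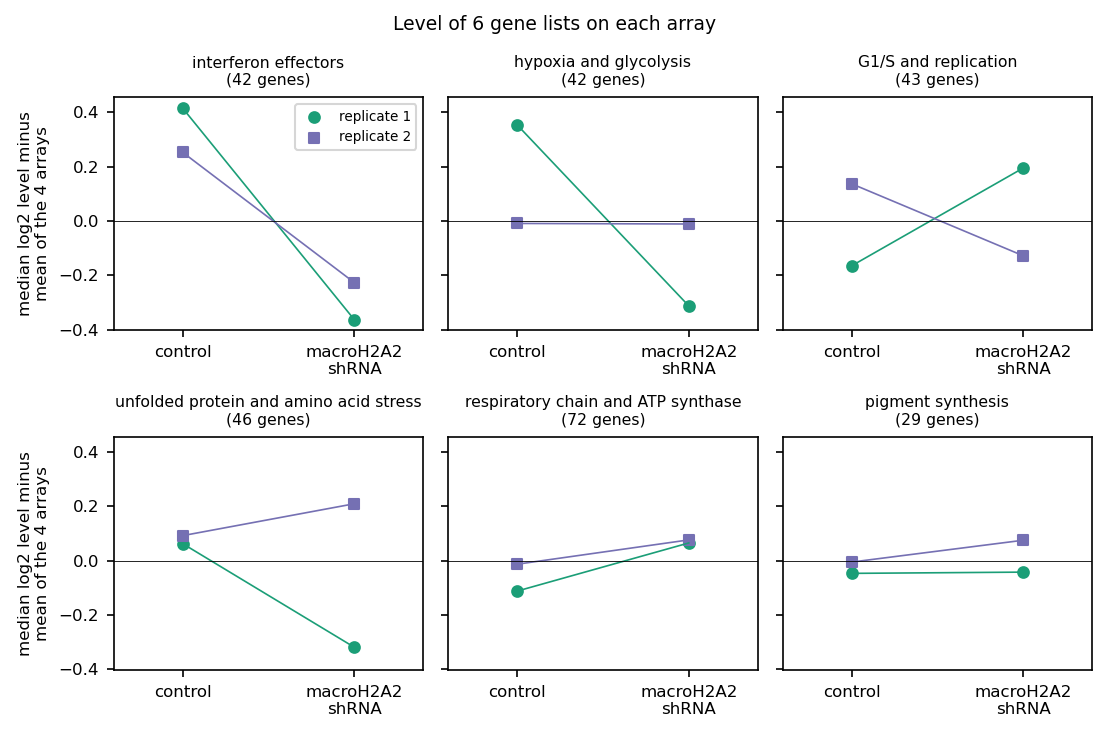
Median log2 level of 6 gene lists on each of the 4 arrays, relative to the mean of the 4 arrays for each gene, with replicate 1 as circles and replicate 2 as squares. Lines join the arrays of a replicate number. The interferon lines run down in both replicates, the replication lines cross, and the hypoxia list goes from 0.35 to -0.31 in replicate 1 while both replicate 2 arrays lie at -0.01.

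Hypoxia and glycolysis genes had the second lowest median among those lists, -0.35 over 42 tested genes, and differed between the sets. Their median was -0.61 in set 1, with 39 lower, and 0.04 in set 2, with 19 lower. On the control replicate 1 array 37 of the 42 were higher than on control replicate 2, by a median of 0.44. Without control replicate 1 the list's median was -0.14, and without macroH2A2 shRNA replicate 1 it was -0.15. Slc2a1, the glucose transporter GLUT1, was lower in both sets, with 1431.9 and 1049.2 against 647.0 and 749.9 (-0.80, SE 0.18). Pdk1 and Bnip3, named after their values were seen, show the spread: Pdk1 read 1947.3 and 808.1 against 503.5 and 614.4. Bnip3, a mitophagy receptor, read 3435.6 and 1922.6 against 888.2 and 2006.2. No member passed in either fit.

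Stress response genes, induced by unfolded protein or amino acid shortage, had opposite signs in the sets, with medians of -0.44 and 0.19 over 46 genes. Trib3 and Ddit3, both targets of ATF4 and named after their values were seen, were lower in set 1 and higher in set 2. Trib3 read 633.5 and 364.1 in control against 124.5 and 709.0 with the hairpin. Ddit3 read 1365.0 and 664.9 against 340.1 and 1017.2. The list's median became 0.12 without macroH2A2 shRNA replicate 1. Among genes of MAP kinase feedback, with a median of -0.15 over 29, the immediate early gene Egr1 followed the replicate number more than the hairpin, with 6.2 and 308.1 against 20.8 and 1142.9. Egr1 was also named after its values were seen. The median of that list became 0.03 without macroH2A2 shRNA replicate 1 and -0.35 without macroH2A2 shRNA replicate 2. Mitochondrial ribosomal proteins, heat shock chaperones, sterol synthesis genes and the proteasome had positive medians in set 1 (0.26, 0.25, 0.25 and 0.22) and slightly negative ones in set 2 (-0.05, -0.02, -0.02 and -0.08).

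**Figure D5:**
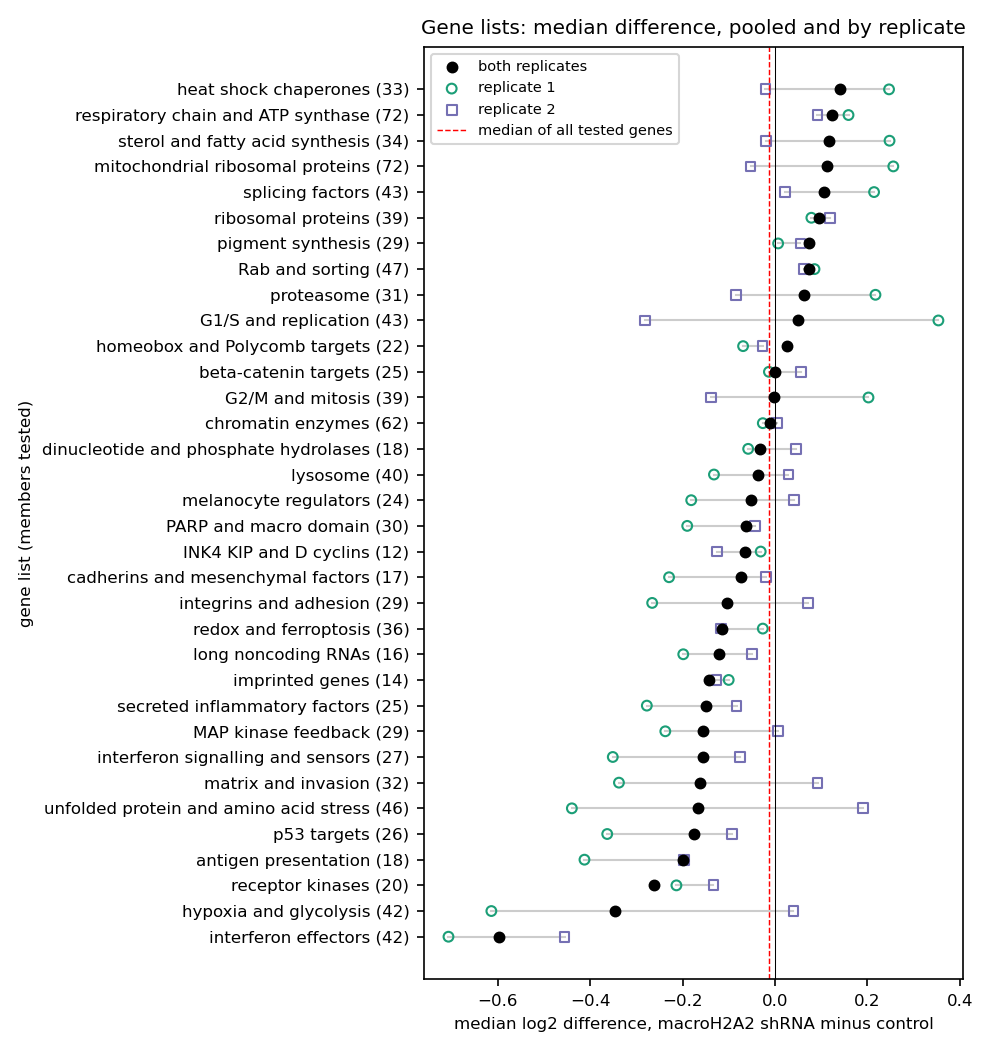
Median difference of each gene list with at least 10 tested members (number in brackets), on the log2 scale, over both replicates as filled circles and within set 1 and set 2 as open circles and squares. The interferon effector list lies lowest in both sets, and the grey bars are long for the hypoxia, unfolded protein and replication lists, whose sets disagree.

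Most p53 targets were lower in signal without passing, while the list of cell cycle inhibitors, D cyclins and RB had a median of only -0.07. Of 26 p53 targets, 22 were lower, with a median of -0.18 (-0.36 and -0.09 in the sets). Groups did not overlap on the low side for 8 (30.8%), against 18.4% of all tested genes. Apaf1, the scaffold of the apoptosome, read 530.5 and 573.5 against 285.2 and 350.8 (-0.77, SE 0.16, adjusted p = 0.0735 with the block). Gadd45b, a stress-induced growth arrest gene, read 122.2 and 71.6 against 42.4 and 35.7. In the list of cell cycle inhibitors, D cyclins and RB, 9 of 12 tested genes were lower and 3 higher, and 0 passed. Its set medians were -0.03 and -0.12, and its median was 0.0045 under median centring. Its member Cdkn1a, which encodes the cyclin-dependent kinase inhibitor p21, read 852.6 and 841.6 against 479.1 and 670.7.

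Chromatin and developmental gene groups had medians near that of all genes. Of 62 chromatin enzyme genes, 28 were higher and 34 lower, with a median of -0.01 and 0 past the threshold. Smarca4, the ATPase of the BAF complex, read 808.3 and 888.8 against 1156.6 and 1005.2. Only 22 homeobox and Polycomb target genes were bright enough to test of 57 on the array, and they had a median of 0.03. Neighbours within the Hoxa cluster differed in sign. Hoxa9 read 253.1 and 242.6 against 176.7 and 176.1, and Hoxa10 read 259.5 and 290.0 against 369.9 and 369.3. Only 5 genes of core and linker histones were tested, with a median of -0.54, and their set medians were -0.77 and 0.11. The median was -0.36 without macroH2A2 shRNA replicate 1 and -1.02 without macroH2A2 shRNA replicate 2. H1f2, a linker histone, read 1073.7 and 1263.7 against 456.1 and 1376.0.

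The macroH2A2 line was also set against the macroH2A1 line, to test where the hairpins differed. Limma called 0 of 27025 probe sets without the block (smallest adjusted p 0.309) and 1 with it, Macroh2a1, the target of the other hairpin, 1.65 higher in the macroH2A2 line. Each line was compared with the same control arrays, and the genes with the largest differences here had values of the same sign in the macroH2A1 line. Atp5g1 was at 1.78 in the macroH2A2 line and 1.59 in the macroH2A1 line, Pacs2 at 1.56 and 1.30, and Cdk8 at 1.33 and 1.30. On the low side Mndal was at -1.84 and -2.23, Cited1 at -1.46 and -1.91, and Ifit1 at -1.36 and -1.16. A few other genes were closer to control in the macroH2A1 line, without an adjusted p under 0.05 between the lines. Acp1 read 1451.6 and 1413.2 in the macroH2A1 line, at the control level, and the difference between the lines was -0.80 (SE 0.12, limma adjusted p = 0.135 with the block). Fam149a read 132.5 and 167.0 there (difference -1.12, adjusted p = 0.135 with the block). Hmga2 read 147.8 and 151.9 (difference -0.88, adjusted p = 0.221 with the block). Igf2r, the imprinted receptor that clears IGF2, read 1079.5 and 682.6 in control, 992.3 and 932.8 in the macroH2A1 line and 431.2 and 519.0 in the macroH2A2 line. Tcf7l1, a repressor of beta-catenin targets, read 245.1 and 200.9, then 295.9 and 318.2, then 141.1 and 149.1 in the same order. Neither passed between the lines, with adjusted p of 0.182 and 0.141 with the block. For the interferon effectors both lines share the control arrays, and the list's median was -0.67 in the macroH2A1 line beside -0.60 here.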

How the data were processed

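Groups and replicate numbers came from the sample labels. Per the submitters' processing notes, MAS5 produced the values, and its version is not stated there. The authors deposited 1 linear signal intensity for each probe set. Their trimmed mean was 150.0 on each array, so the authors had scaled all arrays alike, which removes any change in total signal. Of 45101 probe sets, 64 controls were left out. The platform annotation named a single gene for 34945 of the 45037 others, several for 932 and none for 9160, and only the first were named. The symbols of 34741 matched a gene record by Entrez identifier, and 0 changed.

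Probe sets with a mean over 6 arrays at or above the 40th percentile, 10.4 signal units, were tested as log2(signal + 16), which understates the change of dim probe sets. All 6 arrays entered 1 limma fit (limma 3.58.1, R 4.3.3, eBayes with trend), with 3 residual and 4.90 prior degrees of freedom. Tests were two-sided, with p adjusted by Benjamini-Hochberg over all tested probe sets and a threshold of 0.05. The fit was tested on simulated data. The number of arrays limits the precision. The labels share replicate numbers without naming a batch. Replicate 1 minus replicate 2 differences correlated between lines with r of 0.576, 0.372 and 0.415 over tested probe sets, so a fit that blocks on replicate number (2 residual and 9.09 prior degrees of freedom) and the values within each set stand beside the results.

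Named were Macroh2a1, Macroh2a2, Cdk8, up to 15 probe sets a direction past the threshold (with the block, where none passed without it) whose groups did not overlap, the 10 largest a direction in both sets, and per list the 4 members with the smallest p and any past the threshold. All further probe sets past the threshold with 1 symbol were also named. Dct and the other exceptions, marked where they stand, were chosen after their values were seen. In lists a gene stands by its brightest probe set. The 42 lists held 1484 entries, of which 1351 were on the array and 1168 tested. The comparison, lists and rule were chosen with earlier results of these data known. Alternatives were the pseudocount, the filter, quantile normalization, median centring, fewer arrays in the fit, no variance trend and leaving out each array.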

Additional observations from a re-analysis of the deposited data

Results flagged for a closer look

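Outside the named genes, 5 tested probe sets without a single gene symbol passed the threshold with the replicate block (limma, Benjamini-Hochberg). The platform annotation gave 4 of them no symbol and 1 several symbols. Their log2 differences were -1.48, -1.30 and -1.10 on the low side and 0.87 and 0.86 on the high side. The probe set at -1.10 read 2199.2 and 635.4 in control against 1025.6 and 287.0 with the macroH2A2 hairpin, so that its groups overlapped while each hairpin array lay below the control array of its number. The probe set at -1.30, which has several symbols, read 53.5 and 62.3 against 11.4 and 16.9.

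Macroh2a1 differed between the 2 shRNA lines in a test of that difference. It was 1.65 higher on the log2 scale in the macroH2A2 shRNA line than in the macroH2A1 shRNA line (SE 0.17, limma adjusted p = 0.00545 with the replicate block and 0.309 without).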

How the results depend on the processing

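With 2 arrays a group, calls depended on the processing. Without the block limma called 0 probe sets under every alternative run, with smallest adjusted p of 0.120 or more and between 622 and 1972 probe sets at an unadjusted p under 0.05. With the replicate block it called 39. The count with the block was 0 without the signal filter (smallest adjusted p 0.129, 3258 at an unadjusted p under 0.05) and 0 without the variance trend (0.113 and 2314). It was 16 under quantile normalization, all among the 39, and 23 under median centring, 22 of them among the 39. It was 132 with only the 4 arrays in the fit. Leaving out 1 array gave 3 to 804 calls: 3 without control replicate 1, 96 without control replicate 2, 114 without macroH2A2 shRNA replicate 1, 804 without macroH2A2 shRNA replicate 2, and 138 and 133 without either macroH2A1 shRNA array. The lone array of a group is then assumed to vary like the others. Groups did not overlap for 7880 probe sets, for 13038 without the filter, and for 16081 to 19976 when 1 array was left out, which leaves fewer arrays to overlap. With all 4 compared arrays in the fit, the filter, variance trend, block and macroH2A1 shRNA arrays do not enter a probe set's difference. Many alternative values therefore kept their direction by construction. When 1 of these 4 arrays was left out, the block and with it the macroH2A1 shRNA arrays did enter. Without control replicate 1, the brightest Malat1 probe set was at -0.07 without the block and -1.24 with it. Of 1127 alternative values of 39 named probe sets, 1120 kept their direction and 7 reversed. Those were 1 value of the second brightest Malat1 probe set, which ranged from -2.28 to 0.12 when 1 array was left out, the highest without control replicate 1, and 6 of Macroh2a1. Macroh2a1, whose difference was -0.02, was at 0.050 under median centring with or without the block. It ranged from -0.079 to 0.039 when 1 array was left out, with 0.0083 without control replicate 2 and 0.039 without macroH2A2 shRNA replicate 2. With the block it was at 0.15 without control replicate 2 and 0.021 without macroH2A2 shRNA replicate 1. Of 670 alternative list medians, 600 lay within the spread of the 2 sets. Those without the signal filter, without the variance trend, with the block alone or with fewer macroH2A1 shRNA arrays equalled the main median by construction. The spread came from the same data, so lists whose sets disagreed had the widest margin. Dim probe sets, Macroh2a2 among them, limit what the arrays could show. The causes of these changes were not tested.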

Other observations

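Integrin, adhesion and matrix genes beyond Itga4 were described by their values only. Of 29 integrin and adhesion genes, 19 were lower, with a median of -0.10 that became 0.09 without control replicate 1. Itgb5, the beta subunit of a vitronectin receptor, read 310.1 and 204.3 in control against 165.2 and 172.2 with the macroH2A2 hairpin. Of 32 matrix and invasion genes, 21 were lower, with medians of -0.34 in set 1 and 0.09 in set 2. Adam17, the sheddase that releases TNF, read 592.8 and 503.8 against 338.7 and 411.6, and Hpse, the heparanase, read 576.5 and 301.4 against 218.3 and 271.4. No gene of these lists other than Itga4 passed the threshold in either limma fit.

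Lysosomal and redox genes held members that were apart in both directions without passing. Ctsh, a lysosomal cysteine protease, read 180.8 and 184.4 against 90.5 and 108.2, while Atp6v0d1, a subunit of the proton pump that acidifies lysosomes, read 1688.6 and 1807.1 against 2202.2 and 2393.5. The list of 40 lysosomal genes had a median of -0.04. Gsr, the glutathione reductase, read 533.5 and 807.4 against 346.6 and 355.2, and Hmox1, the inducible heme oxygenase, read 778.8 and 656.0 against 281.5 and 466.3. Of 36 redox and ferroptosis genes 22 were lower and 14 higher, and Gpx4 was the member that passed with the replicate block. Acss2, which makes acetyl-CoA from acetate, read 260.2 and 244.0 against 146.8 and 173.2. Fads1, a fatty acid desaturase, read 659.6 and 577.1 against 494.4 and 418.1.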
